A study of Rattus norvegicus with 5 samples.

Results

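Transcripts of axon guidance ligands and receptors were followed in 2 kinds of projection neuron of the rat striatum. The genes were chosen by symbol: semaphorins, plexins A to D, neuropilins, Eph receptors and ephrins, Slits and Robos, and netrins with Dcc and the Unc5 receptors. The rule took 53 of the 12039 genes named in the authors' deposited comparison. It leaves out 2 family members by name. One of the 53, Unc50, was matched by its letters only and encodes no Unc5 receptor, so the families held 52 genes: 25 in the semaphorin, plexin and neuropilin family, 14 in the Eph and ephrin family, 6 in the Slit and Robo family and 7 in the netrin, Dcc and Unc5 family.

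Striatomesencephalic neurons (2 libraries) send their axons to the midbrain and form the direct pathway, and striatopallidal neurons (3 libraries) send theirs to the pallidum and form the indirect pathway. In both groups the neurons were labelled by a tracer taken up at the axon terminals, cut out by laser capture and sequenced after amplification of polyadenylated RNA. No treatment separates the groups. The sources used here do not give strain, age, sex or how many cells and animals went into a library, so p-values measure only the spread between these libraries, which may be technical.

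Guidance ligands are secreted or membrane-bound proteins that attract or repel a growing axon, and the receptors on the axon set the answer. Semaphorins act through plexins, with neuropilins as co-receptors for the secreted class. Ephrins bind Eph receptor tyrosine kinases on neighbouring cells, and both partners can signal. Slits repel axons through Robos, while netrin-1 attracts through Dcc and repels through Unc5 receptors. In the adult brain many of these proteins are found at synapses, and in the striatum plexin-D1 is known as a receptor of direct pathway neurons that limits, on binding Sema3E, the synapses they receive from the thalamus.

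Library totals ran from 20845178 to 24805062 counts, so 3 counts, taken as the detection floor, were worth 0.121 to 0.144 CPM, for counting error only. CPM here is a gene's count divided by the library total and scaled to a common total. The labels held against marker genes: 5 direct pathway markers summed to 4384 and 4929 CPM in striatomesencephalic libraries and to 1582 to 2387 CPM in striatopallidal ones, and 4 indirect pathway markers to 1374 and 1710 against 5492 to 6029 CPM. Of the direct pathway markers, Chrm4 alone overlapped (12.9 and 41.9 against 15.8, 17.7 and 16.6 CPM). Each group also held markers of the other pathway. Drd1 stood at 311 to 582 CPM in striatopallidal libraries, and Adora2a at 824 and 1150 CPM in striatomesencephalic ones. The part of the other pathway's RNA in a library was not tested. All 8 markers shared by both neuron types were detected in every library, and their sum was lower in striatomesencephalic libraries without overlap. RNA of other cells was present in both groups, with 8 oligodendrocyte markers at 5904 and 7345 against 5230 to 7089 CPM and 7 astrocyte markers at 935 and 1191 against 847 to 1297 CPM. Within the astrocyte list Gfap, the filament protein of astrocytes, stood at 11.5 and 3.85 CPM against 243, 175 and 87.7 CPM and Aqp4 at 53 and 30.5 against 89.4, 63.5 and 62.3 CPM, both lower in striatomesencephalic libraries without overlap. Slc1a2 (37.6 and 63.9 against 25.4, 36.4 and 26.2 CPM) and Aldh1l1 (1.87 and 7.83 against 1.55, 0.484 and 0.312 CPM) were higher without overlap. The part of other cells' RNA in the results below was not tested. Striatopallidal replicate 2 stood apart: it held the lowest value of the 5 libraries for 42.1% of all genes tested and for 18 of 52 members (34.6%). It also held the highest value for 15 members (28.8%), where 18.1% of all genes were highest there. Striatomesencephalic replicate 1 was highest for 15 members as well.

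No guidance gene passed the test over all genes. The genes were widely detected in both neuron types, with 47 and 48 of 53 members at 10 counts or more in the striatomesencephalic libraries and 51, 50 and 51 in the striatopallidal ones. Of the 53 members, 52 passed the filter on low counts and were tested with edgeR's quasi-likelihood test; Robo4 did not pass. At an adjusted p under 0.05, 0 members were called, where 0% of all 13811 genes were. At an unadjusted p under 0.05 there were 5 members, against 6.07% of all genes: Plxnd1 and Nrp1 were higher in striatomesencephalic libraries (background in that direction 2.93%), and Sema5a, Nrp2 and Ephb4 were lower (background 3.14%). Of the 52 tested members, 8 would have passed the filter by their striatopallidal libraries but not by their striatomesencephalic ones, and 0 the reverse. These 8 were Nrp2, Ephb4, Ephb2, Plxnb3, Sema3a, Sema7a, Unc5d and Efna1. They reached the cutoff of 0.442 CPM in at most 1 striatomesencephalic library. A gene so kept is open to a test mainly as lower, though Efna1 had a log2 fold change of 0.33. Nrp2 and Ephb4 are among them, so of the 44 members that either group would have kept, 3 had an unadjusted p under 0.05. DESeq2 called 1 member, Nrp2, where it called 1.75% of all genes, the exact test of edgeR called 0 members with 0.326% of all genes called, and limma voom called 0 of either. A test on simulated counts, with the common spread of these libraries given to every gene, recovered 0 of 98 genes changed 16-fold. A gene of that spread could thus change 16-fold and go uncalled. The spread differs between genes, so this does not carry over to members that vary less.

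Looking at single libraries, 16 of the 52 tested members had no overlap between the groups, 10 with both striatomesencephalic values above all 3 striatopallidal ones and 6 below. That is 30.8% of the members, where 21.1% of all genes tested had no overlap (11.2% higher and 9.91% lower). The median log2 fold change of the tested members, striatomesencephalic minus striatopallidal, was 0.11, with 27 values above 0 and 25 below. Over all genes the median was -0.06, and 47.4% of values were above 0. In these bulk samples fewer cells of a type and less RNA per cell cannot be told apart.

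**Figure D1:**
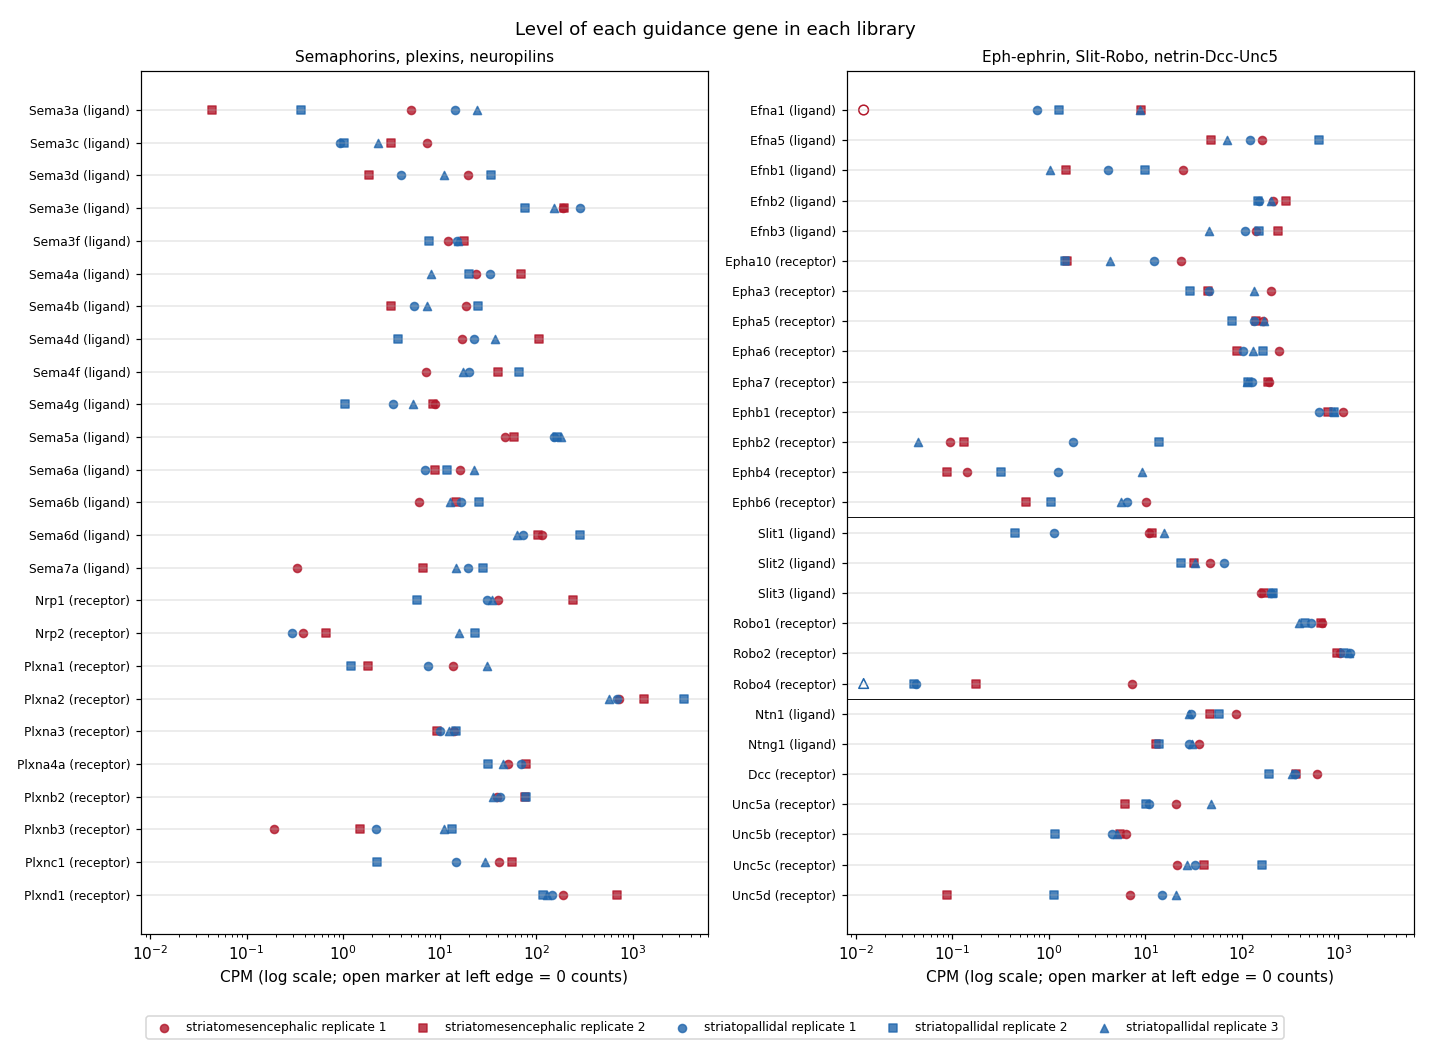
CPM of 52 guidance genes in each of the 5 libraries on a log axis, striatomesencephalic libraries in red and striatopallidal ones in blue, with open markers where a library had 0 counts. Sema5a, Epha7, Robo1 and Slit3 show the groups apart with little spread, while genes under 10 CPM such as Ephb2 and Sema3a scatter widely within a group.

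Among the semaphorins, Sema5a had the smallest p of all members. Sema5a is a transmembrane semaphorin whose receptors include plexins of the A class and plexin-B3. It stood at 48.0 and 58.2 CPM in striatomesencephalic libraries and at 151, 165 and 180 CPM in striatopallidal libraries. The 3 striatopallidal values were all above the striatomesencephalic ones, and the groups did not overlap. The means of 53.1 ± 7.22 CPM (SD, n = 2) and 165 ± 14.2 CPM (SD, n = 3) were apart by more than the SD of either group, with a log2 fold change of -1.74 ± 0.46 (SE), an unadjusted p of 0.0071 and an adjusted p of 0.779 in edgeR's quasi-likelihood test. Leaving out each library in turn kept the log2 fold change between -1.90 and -1.56. The astrocyte markers Gfap and Aqp4 lay on the same side as Sema5a and Sema7a, while Slc1a2 and Aldh1l1 lay on the other. Slc1a3, Gja1, Aldoc and the sum of the astrocyte markers overlapped between the groups. The part of astrocyte RNA in the values of Sema5a and Sema7a was not tested.

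Sema7a, a semaphorin held in the membrane by a lipid anchor, also lay lower in striatomesencephalic libraries, at 0.336 and 6.68 CPM against 19.5, 27.9 and 14.9 CPM. Its receptor, plexin-C1, lay on the other side. Plxnc1 had 41.6 and 56.1 CPM in the striatomesencephalic and 14.9, 2.22 and 29.7 CPM in the striatopallidal libraries. So neither gene of this ligand and receptor pair overlapped between the groups, and they differed in opposite directions. The log2 fold changes were -2.70 ± 1.34 (SE, adjusted p = 0.779) for Sema7a and 1.70 ± 0.94 (SE, adjusted p = 0.792) for Plxnc1. The pair was picked out after its values were seen, and neither gene passed.

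Of the 15 semaphorins tested, 6 had a log2 fold change above 0 and 9 below, with a median of -0.47. Beside Sema5a and Sema7a, the groups did not overlap for Sema3c and Sema4g, both low. Sema3c, a secreted semaphorin, had 7.34 and 3.10 CPM in striatomesencephalic but 0.923, 1.01 and 2.32 CPM in striatopallidal libraries. Sema4g had 8.92 and 8.49 against 3.27, 1.05 and 5.31 CPM. Both were higher in striatomesencephalic libraries, with log2 fold changes of 1.81 ± 1.07 and 1.45 ± 0.98 (SE), less than 2 standard errors from 0.

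Sema3e, the secreted ligand of plexin-D1, showed no such separation. It stood at 188 and 196 CPM in striatomesencephalic libraries and at 281, 76.7 and 151 CPM in striatopallidal ones, with the striatopallidal values on both sides of the others. Its log2 fold change was 0.20 ± 0.49 (SE). The value for Sema6d, which signals through plexins of the A class, rested on 1 library: 114 and 105 CPM against 72.4, 281 and 63.0 CPM, where striatopallidal replicate 2 alone was high. Sema4d, an oligodendrocyte and immune cell semaphorin that binds B-class plexins, had 108 CPM in striatomesencephalic replicate 2 and 3.67 to 37.6 CPM in the other 4 libraries. The remaining semaphorins (Sema3a, Sema3d, Sema3f, Sema4a, Sema4b, Sema4f, Sema6a and Sema6b) overlapped between the groups, with log2 fold changes from -2.28 for Sema3a to 1.11 for Sema4a. Sema3a, the ligand of the neuropilin-1 and plexin-A complex, ranged from 1 to 106 counts within the striatomesencephalic group and from 9 to 540 within the striatopallidal group.

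Of the semaphorin receptors, Plxnd1 and Nrp1 were the members with an unadjusted p under 0.05 that were higher in striatomesencephalic libraries. Plxnd1 stood at 188 and 691 CPM against 147, 117 and 128 CPM. Both striatomesencephalic values lay above the striatopallidal ones, which were close together, but striatomesencephalic replicate 2 was far above replicate 1. The log2 fold change was 1.69 ± 0.56 (SE), with an unadjusted p of 0.0197 and an adjusted p of 0.779. Without striatomesencephalic replicate 2 the log2 fold change of Plxnd1 was 0.44.

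Nrp1, the co-receptor of Sema3a and also a receptor of vascular endothelial growth factor, also stood highest in striatomesencephalic replicate 2. It stood at 40.2 and 241 CPM in the former group and at 31.2, 5.81 and 34.5 CPM in the latter. Replicate 1 was thus barely above the striatopallidal range. The log2 fold change was 2.62 ± 0.92 (SE, unadjusted p = 0.0245, adjusted p = 0.779), and 0.78 without striatomesencephalic replicate 2. Both receptors are also made by blood vessels, so vascular markers were read beside them: 6 of 8 could be matched, and they summed to 35.8 and 82.3 CPM in striatomesencephalic libraries and to 59.3 to 124 CPM in striatopallidal libraries. Within the striatomesencephalic group the vascular sum, Plxnd1 and Nrp1 were all higher in replicate 2. Over all 5 libraries the vascular sum was highest in striatopallidal replicate 2, where Plxnd1 and Nrp1 were lowest. Of the single vascular markers, Flt1 was lower in striatomesencephalic libraries without overlap (19.5 and 32.7 against 40.7, 65.3 and 48.4 CPM). So was Tek (0.528 and 0.177 against 4.4, 5 and 1.87 CPM), while Kdr, Vwf, Pdgfrb and Rgs5 overlapped. None of the 6 was at 0 apart from Vwf in striatopallidal replicate 2, and the part of vascular RNA in these values was not tested.

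Nrp2, the co-receptor of Sema3f, was near the detection floor in 3 libraries. It had 8 and 15 counts in striatomesencephalic libraries and 7, 578 and 352 counts in striatopallidal libraries, so striatopallidal replicate 1 lay below both striatomesencephalic libraries. Its fitted value, a log2 fold change of -4.87 ± 1.92 (SE), had an unadjusted p of 0.0386 and an adjusted p of 0.779 with edgeR's quasi-likelihood test, and an adjusted p of 0.0431 with DESeq2. With limma voom the unadjusted p was 0.309. Nrp2 reached the filter's cutoff in striatopallidal replicates 2 and 3 and, at 0.663 CPM, in striatomesencephalic replicate 2. The striatomesencephalic libraries alone would not have kept it, so it was open to a test mainly as lower. Plxnb3, a plexin of the oligodendrocyte lineage and a receptor of Sema5a, was kept likewise, with 4 and 34 counts against 52, 329 and 252 counts, without overlap (log2 fold change -3.56 ± 1.51, unadjusted p = 0.0508). The summed oligodendrocyte markers given above overlapped between the groups.

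For Plxna2, a receptor of class 6 semaphorins, 1 library set the direction. Plxna2 stood at 725 and 1317 CPM in striatomesencephalic libraries and at 691, 3359 and 568 CPM in striatopallidal libraries. With all libraries the log2 fold change of Plxna2 was -0.88 ± 0.94 (SE), and without striatopallidal replicate 2 it was 0.79. The other plexins, Plxna1, Plxna3, Plxna4a and Plxnb2, overlapped between the groups, with log2 fold changes from -0.74 for Plxna1 to 0.39 for Plxna4a. Plxna3 was the steadiest of them, at 14.0 and 9.46 against 10, 14.6 and 12.4 CPM.

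**Figure D2:**
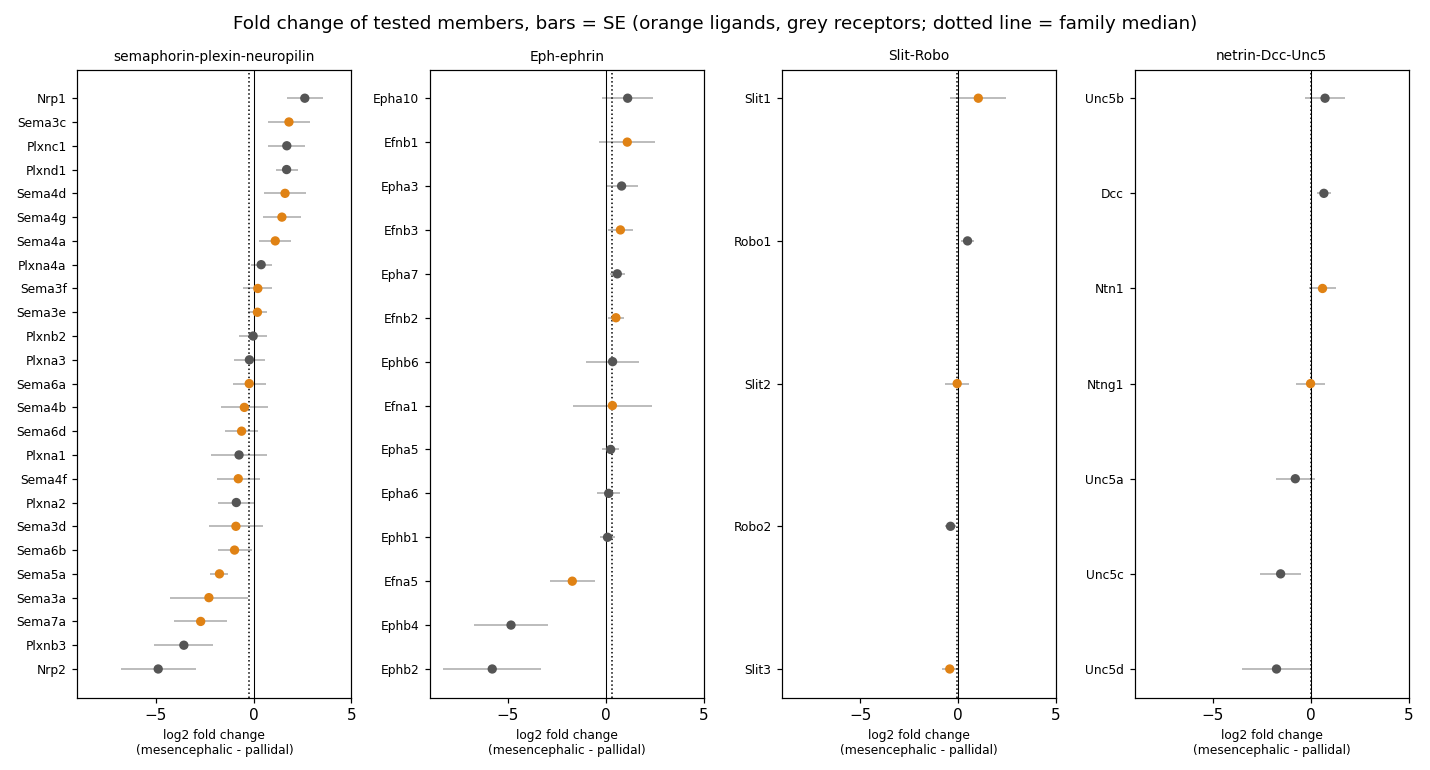
Log2 fold change (striatomesencephalic minus striatopallidal) of the 52 tested members less Unc50, by family, with standard errors; ligands are orange, receptors grey, and dotted lines mark the family medians of -0.22, 0.33, -0.06 and -0.01. In the Eph and ephrin family 11 of 14 values lie above 0, 7 of which change sign when 1 library is left out. The values farthest below 0 (Ephb2, Nrp2, Ephb4) are among those with the widest bars, as are Efna1 and Sema3a.

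In the Eph and ephrin family 11 of 14 tested members had a log2 fold change above 0, where 47.4% of all genes did, and none was called. Of these 11, 7 changed sign when 1 library was left out (Efna1, Efnb1, Epha10, Epha3, Epha6, Ephb1 and Ephb6), and Epha7 and Efnb2 alone had no overlap. The family median was 0.33, though -0.67 without striatomesencephalic replicate 1. Epha7, an Eph receptor with a preference for ephrin-A ligands, separated the groups most tightly, at 192 and 185 CPM against 127, 115 and 114 CPM. Its group means of 189 ± 4.35 CPM (SD, n = 2) and 118 ± 7.14 CPM (SD, n = 3) differed by far more than the SDs. The log2 fold change was 0.58 ± 0.39 (SE), with an unadjusted p of 0.183 and an adjusted p of 0.815. It kept its sign when each library was left out, from 0.49 to 0.73.

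Among the ephrins, Efnb2, a transmembrane ligand of EphB receptors that can itself signal into its cell, stood at 210 and 288 CPM against 151, 148 and 199 CPM. The groups did not overlap, though the nearest values were close (log2 fold change 0.51 ± 0.39, SE). Efnb3, its relative known from the midline, had 140 and 238 against 108, 149 and 45.2 CPM, with overlap. Efna5, a lipid-anchored ligand of EphA receptors, had 161 and 47.9 CPM against 122, 635 and 70.4 CPM. Here striatopallidal replicate 2 again stood alone, and the log2 fold change of Efna5 turned from -1.72 to 0.21 without it. Efna1 and Efnb1 were low and scattered, with Efna1 at 0 and 203 counts in the striatomesencephalic libraries.

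Ephb1, the receptor with the most counts of its family, hardly differed between the groups. It stood at 1110 and 772 CPM in striatomesencephalic libraries and at 636, 900 and 909 CPM in striatopallidal ones (log2 fold change 0.08 ± 0.39, SE). Epha5 and Epha6, further receptors of ephrin-A ligands, also overlapped, with log2 fold changes of 0.24 ± 0.42 and 0.14 ± 0.59 (SE). Epha3 had 202 and 44.9 CPM against 45.7, 28.9 and 135 CPM, with the highest value in 1 library of each group.

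Ephb2 and Ephb4, also receptors of ephrin-B ligands, were close to the floor in striatomesencephalic libraries. Ephb4, best known from veins, had 3 and 2 counts there and 30, 8 and 206 counts in striatopallidal libraries, without overlap (log2 fold change -4.85 ± 1.89, unadjusted p = 0.0370, adjusted p = 0.779). Ephb2 had 2 and 3 counts against 43, 346 and 1 count, so striatopallidal replicate 3 had the fewest of all (log2 fold change -5.81 ± 2.49, unadjusted p = 0.0522). Both genes are among the 8 named above and reached the filter's cutoff in 0 striatomesencephalic libraries, so they could only be tested as lower. Fitted fold changes on so few counts depend on the prior count of the fit and are no bound on the true ratio. The vascular markers Flt1 and Tek lay on the same side as Ephb4, while Kdr, Vwf, Pdgfrb and Rgs5 overlapped. The part of vascular RNA in the Ephb4 counts was not tested. Epha10 and Ephb6, which lack kinase activity, reached at most 23.6 and 10.2 CPM and overlapped.

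In the Slit and Robo family the 2 main receptors lay on opposite sides. Robo1 stood at 671 and 668 CPM in striatomesencephalic libraries and at 523, 450 and 388 CPM in striatopallidal libraries, so it was higher in the former. Robo2 stood at 1049 and 978 CPM against 1326, 1153 and 1302 CPM, so it was lower. The groups did not overlap for either receptor, and the group means of Robo2, 1013 ± 49.9 CPM (SD, n = 2) and 1260 ± 93.6 CPM (SD, n = 3), differed by more than the SDs. The log2 fold changes were small, at 0.47 ± 0.33 (SE, adjusted p = 0.820) for Robo1 and -0.40 ± 0.27 (SE, adjusted p = 0.817) for Robo2. Both kept their sign when each library was left out and under each scaling tried.

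A ratio of counts within a library does not depend on how libraries are scaled. The ratio of Robo1 to Robo2 counts was 0.640 and 0.684 in striatomesencephalic libraries and 0.395, 0.390 and 0.298 in striatopallidal libraries. All striatomesencephalic ratios were thus above all striatopallidal ones, with means of 0.662 ± 0.0309 (SD, n = 2) and 0.361 ± 0.0546 (SD, n = 3). The ratio was chosen after the values were seen. Since Robo1 was higher and Robo2 lower without overlap, their ratio had to separate the groups, so it adds no further support. With 2 against 3 libraries the smallest p of an exact two-sided permutation test is 0.1, and the test was not run.

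Of the ligands of this family, the Slits, only Slit3 had no overlap. Slit3 stood at 157 and 169 CPM against 202, 211 and 206 CPM, lower in striatomesencephalic libraries without overlap (log2 fold change -0.44 ± 0.40, SE). Its count was a steady share of that of Robo2, with ratios of 0.150 and 0.173 in striatomesencephalic and 0.152, 0.183 and 0.159 in striatopallidal libraries. Slit2 had 46.4 and 31.9 against 64.8, 23.5 and 33.0 CPM, with overlap and a log2 fold change of -0.06 ± 0.62 (SE). Slit1 had 11 and 11.7 CPM in striatomesencephalic but 1.13, 0.443 and 15.7 CPM in striatopallidal libraries, and its log2 fold change of 1.02 ± 1.43 (SE) was 3.79 without striatopallidal replicate 3. Robo4, a receptor of blood vessels, had 150 and 4 counts against 1, 1 and 0 counts and was not tested.

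**Figure D3:**
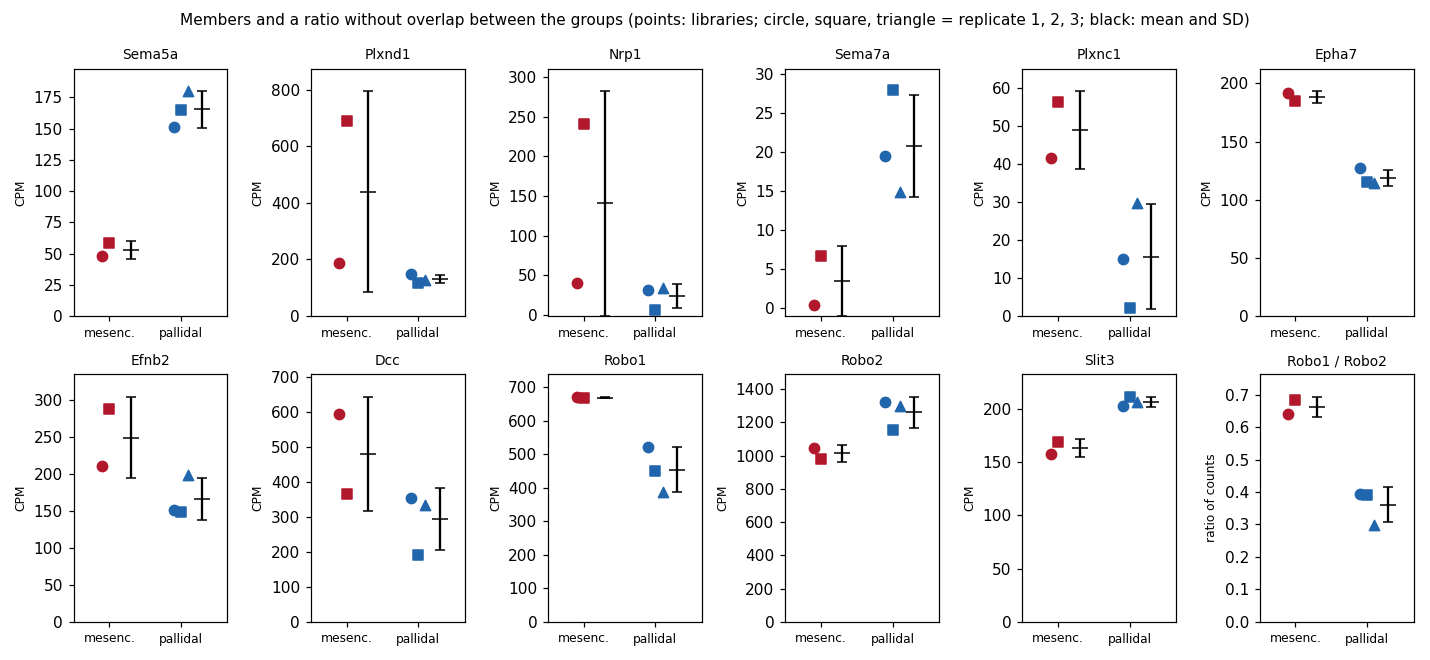
CPM per library of 11 members without overlap between the groups, and the ratio of Robo1 to Robo2 counts; points are libraries, black marks the group mean and SD, and some axes start just below 0 to hold the SD. Robo1 and Robo2 differ in opposite directions, Sema5a is lower in both striatomesencephalic libraries, and Plxnd1 and Nrp1 rest on striatomesencephalic replicate 2.

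In the netrin family the attractive receptor Dcc was higher in striatomesencephalic libraries without overlap, but by little beyond the nearest library. Dcc stood at 595 and 365 CPM against 354, 191 and 334 CPM. Its log2 fold change was 0.67 ± 0.36 (SE), with an unadjusted p of 0.104 and an adjusted p of 0.781. It ranged from 0.31 to 0.97 when each library was left out. Ntn1, its ligand, had 86.4 and 46.7 CPM against 29.6, 57.5 and 28.5 CPM, with overlap, and a log2 fold change of 0.60 ± 0.69 (SE).

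The repulsive netrin receptors did not follow Dcc as a group. Unc5c had 21.5 and 40.9 CPM against 32.9, 163 and 27.1 CPM, and its log2 fold change of -1.54 ± 1.06 (SE) became 0.15 without striatopallidal replicate 2. Unc5a had 21.0 and 6.19 against 11, 10.1 and 48.1 CPM, and its log2 fold change of -0.79 became 0.20 without striatopallidal replicate 3. Unc5d, at 146 and 2 counts against 354, 28 and 470 counts, varied too much within groups to be read. Unc5b alone did not overlap, at 6.24 and 5.48 against 4.57, 1.17 and 5.04 CPM, with a log2 fold change of 0.73 ± 1.0 (SE). Ntng1, a membrane-anchored relative of netrins that does not bind Dcc, had 36.1 and 13 against 28.1, 14.0 and 30.4 CPM (log2 fold change -0.01 ± 0.72, SE), and Unc50 overlapped as well (0.24 ± 0.80).

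Set side by side, the 4 families had median log2 fold changes from -0.22 to 0.33, where all genes had -0.06. The Eph and ephrin family had 0.33 (11 higher, 3 lower), the semaphorin family -0.22 (10 higher, 15 lower), the Slit and Robo family -0.06 (2 higher, 3 lower) and the netrin family -0.01 (3 higher, 4 lower). Groups without overlap were found for 8 of 25, 3 of 14, 3 of 5 and 2 of 7 tested members of the semaphorin, Eph, Slit and netrin families, or 32%, 21.4%, 60% and 28.6%, where all genes had 21.1%. The median of the Eph and ephrin family was -0.67 without striatomesencephalic replicate 1, and that of the semaphorin family 0.45 without striatopallidal replicate 2. No difference between families was tested, since genes are not replicates.

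Summed over all members, no family separated the 2 neuron types. The semaphorin family summed to 1607 and 3117 CPM in striatomesencephalic libraries and to 1683, 4394 and 1482 CPM in striatopallidal libraries. Plxna2 took 38.3 to 76.4% of the family's counts. Without Plxna2 the family summed to 882 and 1800 CPM against 992, 1035 and 914 CPM, so striatopallidal replicate 2 was no longer apart and striatomesencephalic replicate 2 still was. In that library Plxnd1 stood at 691 CPM and Nrp1 at 241 CPM. The Eph and ephrin family summed to 2479 and 1819 against 1456, 2249 and 1802 CPM, and the netrin family to 773 and 477 against 475, 438 and 494 CPM. The Slit and Robo family was the most even, at 1941 and 1860 CPM against 2117, 1838 and 1944 CPM. Without Robo2 this family summed to 893 and 882 CPM against 791, 685 and 643 CPM. Counts were not corrected for gene length, so these sums do not rank families or genes.

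Ligands and receptors were also summed apart. In the Slit and Robo family, Slits made up 11.1 and 11.5% of the family's counts in striatomesencephalic libraries and 12.6, 12.8 and 13.1% in striatopallidal libraries, without overlap. The same share overlapped between the groups in the semaphorin family (30.7 and 20.6% against 39.6, 17.0 and 38.6%), the Eph and ephrin family (21.6 and 32.1% against 26.5, 42.0 and 18.0%) and the netrin family (15.8 and 12.5% against 12.2, 16.3 and 11.9%). Slit3, given above as lower without overlap, took 73.2 to 89.8% of the Slit counts, so the Slit share adds little separate support. Of 25 ligands tested, 12 had a log2 fold change above 0, and of 26 receptors 14 did.

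**Figure D4:**
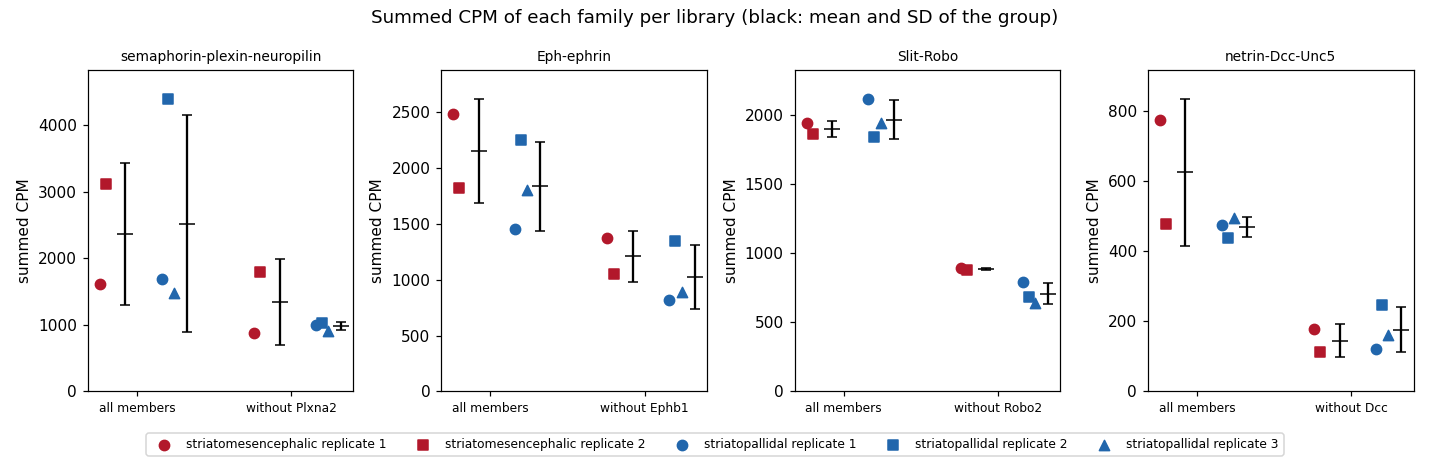
Summed CPM of each family per library, with all members and without the member that took the most counts; points are libraries, black marks the group mean and SD, and axes start at 0. The sums of all 4 families overlap between the groups, and of the 2 high sums of the semaphorin family, that of striatopallidal replicate 2 falls among the others without Plxna2 while that of striatomesencephalic replicate 2 stays above them at 1800 CPM.

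The spread between the 5 libraries was widest in members with few counts. Among 15 members under 10 CPM on average, the highest library was at the median 69.1 times the lowest, among 22 members of 10 to 100 CPM 7.28 times, and among 16 members of 100 CPM or more 2.91 times. The corresponding medians over all genes tested were 19.6, 4.6 and 2.34. Of the 52 tested members, 27 kept 1 sign in every fit that left out a library and still tested them. Of these, 16 were higher and 11 lower in striatomesencephalic libraries. Ephb2 and Ephb4, counted as lower, did not pass the filter in some of these fits.

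Genes that work with these receptors were read from 2 further lists. Of 54 intracellular effectors tested, 29 had a log2 fold change above 0 and 25 below, with a median of 0.08, and of 27 other cues and receptors 10 above and 17 below, with a median of -0.40. None was called at an adjusted p under 0.05, and 2 effectors and 1 other receptor had an unadjusted p under 0.05, all lower in striatomesencephalic libraries. Together these are 3 of 81 genes or 3.7%, where the members had 9.62% and all genes 6.07%, and the shares were not compared by a test. Vav3, an exchange factor that acts below Eph receptors, stood at 113 and 81.5 CPM against 311, 189 and 437 CPM, without overlap (log2 fold change -1.72 ± 0.44, unadjusted p = 0.00555). Srgap1, a GTPase-activating protein that binds Robo, had 58.4 and 71.5 CPM against 185, 68.4 and 226 CPM, with overlap (-1.29 ± 0.53). Cntn1, a contactin of the axon membrane, had 74.1 and 109 CPM against 159, 332 and 183 CPM (-1.47 ± 0.61). In the other direction the smallest p-values belonged to Rac1 (2.05 ± 0.96), Sdcbp (1.08 ± 0.52), the ephrin-B binding protein syntenin, and Pitpna (0.82 ± 0.41), a lipid transfer protein that binds Dcc; without striatomesencephalic replicate 2 the Rac1 value was -0.48 and the Sdcbp value 0.24.

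The authors' deposited table compares the same libraries, with its fold changes signed as striatopallidal minus striatomesencephalic. In the authors' deposited table an unadjusted p under 0.05 was given for 5 of the 53 members, for 4.53% of its 12054 genes. These were Sema5a (log2 fold change 1.64, p = 0.00841), Plxnd1 (-1.52, p = 0.0341), Plxnc1 (-2.45, p = 0.0409), Nrp1 (-2.59, p = 0.0436) and Sema7a (3.65, p = 0.0498), each with an adjusted p of 0.927 in the authors' deposited table by edgeR and limma. The direction was the same as in the fit above for 48 of the 52 tested members, and both rest on the same counts.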

How the data were processed

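RNA of laser-captured striatal neurons was sequenced in 5 libraries grouped by the cell type in the labels. The submitters' processing notes name build Rnor_6.0 and the tools TopHat2, HTSeq, limma and edgeR; the sources used here do not give their roles or versions. The authors deposited raw counts per Ensembl gene, the input of every test here. The authors' deposited comparison gave gene symbols, log2 fold changes and p-values. The authors' deposited tables of normalized values were not used. Whether counting used strand is not given, so reads of overlapping genes could not be told apart.

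The test was edgeR 4.0.16 (R 4.3.3; filterByExpr, TMM, glmQLFit, glmQLFTest), with p-values adjusted by Benjamini-Hochberg over all 13811 genes and a threshold of 0.05. Standard errors were computed from fold change and F. DESeq2 1.42.0, the edgeR exact test, limma voom 3.58.1, other scalings and filters, and leaving out each library were alternatives. Printed CPM values use plain library totals. The lowest chi-square per degree of freedom between libraries was 164, so none was taken for a repeat. On simulated counts with a small spread (13636 genes), the fit recovered 100 of 100 genes with 16-fold changes. In the same run it recovered 98 of 99 genes with 4-fold changes and also called 17 genes that were not changed.

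Members and lists were chosen with earlier results of these data known. Of 61 effectors 54 and of 34 other cues and receptors 27 matched a symbol. Named genes were every member with an unadjusted p under 0.05, the 3 smallest p-values of each family, the 3 members with most counts in the semaphorin and Eph families, all Slit, Robo and netrin members, and the 3 smallest p-values per direction among other guidance genes. Further members were named after their values were seen. The summed markers of oligodendrocyte precursors (173 to 283 CPM), microglia (17.4 to 87.4 CPM, 3 of 6 matched) and striatal interneurons (58.3 to 128 CPM, 4 of 6 matched) overlapped between the groups. Of the single interneuron markers, Slc5a7 was higher in striatomesencephalic libraries without overlap (16 and 8 against 4.32, 2.22 and 1.87 CPM). Chat (0.672 and 1.28 against 2.1, 19.2 and 4.33 CPM) was lower without overlap. Sst (10.9 and 2.12 against 14.2, 19.2 and 25.5 CPM) was lower likewise, and Nos1 overlapped. Of cortical markers, 0 of 3 matched. The 8 shared projection neuron markers summed to 10977 and 15851 CPM in striatomesencephalic and 15941 to 18430 CPM in striatopallidal libraries. This sum did not overlap between the groups, though the nearest values were close.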

Additional observations from a re-analysis of the deposited data

How the results depend on the processing

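Many results depended on 1 library. Against 0 genes with edgeR's quasi-likelihood test, DESeq2 called 226 genes and 1 member (Nrp2, log2 fold change -4.90), and the edgeR exact test 45 genes. Members with an unadjusted p under 0.05 numbered 5, and 8 with DESeq2 or with no filter on low counts. For other guidance genes that count was 3, against 9 with DESeq2, 5 with the exact test and 5 with no filter. The semaphorin median of -0.22 was 0.01 among genes with at least 10 counts in every library, and the median of other guidance genes, -0.05, was 0.10 with limma voom. The log2 ratio of the Slit and Robo sums, -0.05, was -0.14 with RLE scaling, -0.16 with upper quartile scaling and 0.33 without Robo2. That of the netrin sums, 0.41, was -0.28 without Dcc. Ntng1 was 0.02 with library totals only, against -0.01.

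Leaving out each library in turn gave family medians of -0.59 to 0.45 for semaphorins, -0.67 to 0.50 for Ephs and ephrins, -0.33 to 0.32 for Slits and Robos and -0.89 to 0.54 for netrins, and -0.21 to 0.11 for other guidance genes. The netrin sum ratio ran from 0.03 to 0.72. Other guidance genes with an unadjusted p under 0.05 numbered 2 to 9, with 9 without striatopallidal replicate 2. Members without overlap numbered 20 to 32, with 32 and 29 without striatomesencephalic replicates 1 and 2, and the share of all genes without overlap rose likewise, to 31% to 50.3%, since fewer libraries overlap less. Of 52 tested members 25 changed sign when 1 library was left out, 12 of them in the semaphorin family and 8 in the Eph and ephrin family. Among the genes named by rule, log2 fold changes that turned ran from -2.81 to 0.21 for Efna5, -0.18 to 0.36 for Ephb1, -0.89 to 0.54 for Ntng1, -1.39 to 0.79 for Plxna2, -0.48 to 2.92 for Rac1, -0.07 to 0.62 for Sema3e, -0.33 to 0.30 for Slit2, -1.89 to 0.20 for Unc5a and -2.10 to 0.15 for Unc5c; the cause was not tested. Where 1 striatomesencephalic library was left, it was assumed to vary like the other group.

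The replicate numbers 1 and 2 occur in both groups, and the sources used here do not say whether same-numbered libraries are paired. Deviations of same-numbered libraries from their group means correlated at -0.0194 and -0.0342. With 2 striatomesencephalic libraries their deviations mirror each other, so these values cannot decide whether libraries are paired. With the replicate block 0 genes were called, and 5 members and 4 other guidance genes had an unadjusted p under 0.05. Sema5a was the 1 member below that level in both fits. In edgeR's quasi-likelihood test with the block the unadjusted p was 0.0334 for Sema5a, 0.0761 for Nrp1, 0.0785 for Plxnd1, 0.308 for Nrp2 (log2 fold change -2.65) and 0.23 for Ephb4 (-2.59), and 0.0317 for Ephb2, 0.0323 for Sema7a, 0.0398 for Slit1 and 0.0462 for Plxnc1; the family medians were -0.21, 0.08, -0.16 and -0.01 in the order above. The planned division of sums by coding length was not run, as no lengths were at hand.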
